A study of Mus musculus with 24 samples.

Results

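The diet response measured here is the difference in log2 expression between a high-fat diet (HFD) array and its matched chow array, and the comparison is this response in aorta against the same response in skeletal muscle (SkM). All 24 arrays of the series entered, as 12 HFD minus Chow pairs matched by genotype, tissue and trial, with 6 aorta pairs and 6 muscle pairs. The cells were endothelium-enriched cells sorted as live CD105+/CD45- cells from whole aorta and from leg muscles of male mice, either C57BL/6J wild type (WT) or Lgals3-/- (KO, strain B6.Cg-Lgals3tm1Poi/J), a line that lacks galectin-3 in every cell. Mice were given food with 60% or 12% of calories from fat for 8 weeks, and cells from several animals were pooled for each array. Each tissue therefore had 3 WT and 3 KO pairs, and the aorta and muscle samples of a genotype, diet and trial came from the same pooled animals.

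The aorta is a large elastic artery whose endothelium sits on a wall of smooth muscle and elastic sheets and is surrounded by adipose tissue, whereas endothelial cells from muscle come mostly from capillaries that deliver glucose and fatty acids to muscle fibres. Vessels also carry pericytes and fibroblasts on their outer side and resident macrophages nearby. CD105 (endoglin) is strong on endothelium but is also found on some stromal cells and macrophages, and CD45 (Ptprc) marks leukocytes, which the sort was meant to remove. In sorted bulk samples of this kind, fewer cells of a type and less RNA per cell cannot be told apart.

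Levels are log2 intensities relative to the 75th percentile of each array, so that 0 is the level of a fairly bright spot. Between 59.5% and 75.7% of the 43379 spots were well above background on an array. Endothelial markers were bright in both tissues: the level of Eng, which encodes the sorted antigen CD105, had a median of 3.60 in aorta and 4.42 in muscle on chow, while the level of Ptprc had a median of -4.97 and -5.08 and its probe was well above background on 20 of 24 arrays. The probe for Lgals3 went against the genotype labels, with chow aorta levels of 3.88, 4.53 and 4.16 in the arrays labelled KO and 2.80, 2.24 and 2.64 in those labelled WT. Where this probe lies relative to the deleted exons is not given in the sources used here, so it does not check the labels, and KO and WT below stand for arrays labelled so. The pairs SkM KO trial 3 and Aorta WT trial 3 stood apart, with mean correlations across probes of 0.04 and 0.05 with the other pairs of their tissue, against 0.14 to 0.24 for the other 10 pairs. The called differences and the fibroblast list median are given with and without each of these pairs. The white adipocyte and pan-endothelial medians are also given without the aorta pair, and the macrophage median without the muscle pair.

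Few single genes differed between the tissues past correction, while more probes were called in aorta alone than in muscle alone. Of 27387 probes tested (limma, Benjamini-Hochberg adjusted p under 0.05), 6 differed in diet response between aorta and muscle (0.0219%), 3 with the higher response in aorta (0.011%) and 3 with the lower (0.011%). At an unadjusted p under 0.05 there were 2646 probes (9.66%), 1490 above 0 (5.44%) and 1156 below (4.22%). In aorta alone 479 probes were called (1.75%), of which 271 rose with HFD (0.99%) and 208 fell (0.759%). In muscle 79 were called (0.288%), of which 57 rose (0.208%) and 22 fell (0.0803%). The spread between pairs was wide, with a median SD of 0.66 for 6 aorta responses and 0.53 for 6 muscle responses, and the median standard error of a tissue difference was 0.36. The number of tissue differences was 0 with the tissues blocked by genotype and trial (replicate block) and 0 with slide as a random block, each slide having held 1 tissue and trial. With 1 pair left out it was 0 without Aorta WT trial 2 or 3, Aorta KO trial 1 or 3, SkM WT trial 2 or SkM KO trial 1 or 2, and 2 without SkM WT trial 1 or 3. It was 5 without Aorta WT trial 1, 9 without Aorta KO trial 2 and 10 without SkM KO trial 3. All 6 kept their direction without either pair that stood apart. Without the Aorta WT trial 3 pair their adjusted p lay between 0.0533 and 0.0559, and without the SkM KO trial 3 pair 5 of the 6 still passed, Serpina5 having an adjusted p of 0.0642.

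**Figure D1:**
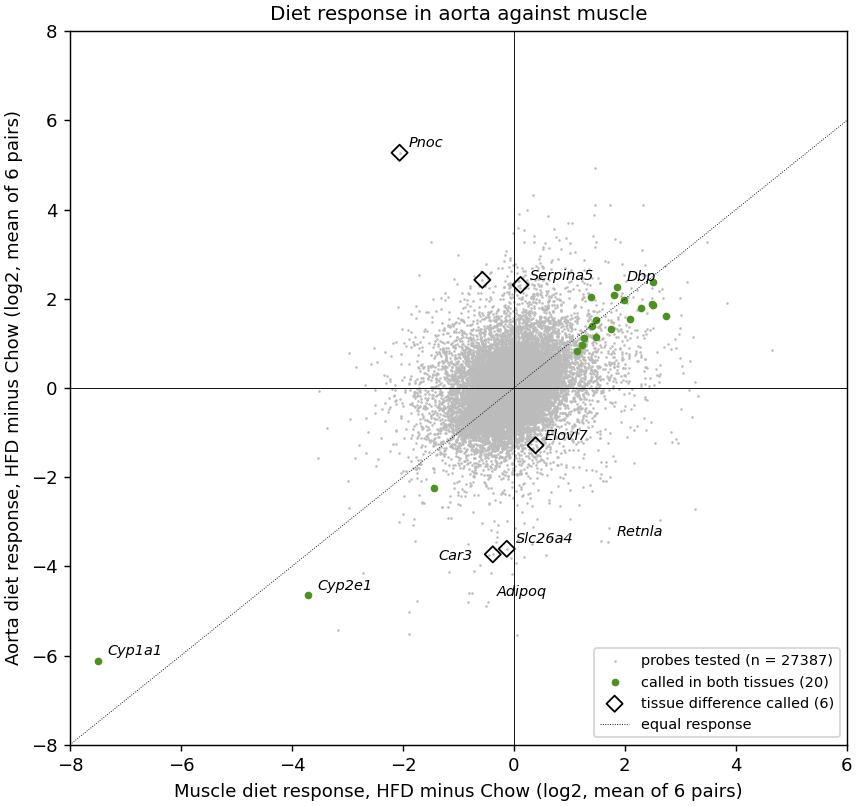
Mean diet response (HFD minus Chow, log2, mean of 6 pairs) of each of 27387 probes in aorta on the vertical axis against muscle on the horizontal axis. Green points are the 20 probes called in both tissues, diamonds are the 6 probes whose tissue difference was called, and the dotted line marks an equal response; Car3 and Slc26a4 lie low on the vertical axis near 0 on the horizontal one, whereas Cyp1a1 and Cyp2e1 lie low on both.

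Car3 encodes a cytosolic carbonic anhydrase abundant in fat and slow muscle, and its tissue difference was among the 6 called. Its aorta responses ran from -4.25 to -3.54 with a median of -3.59, and the muscle responses from -2.00 to 1.20 with a median of -0.45. Every aorta response was below every muscle response. The tissue difference was -3.35 ± 0.40 (SE, n = 6 pairs per tissue, adjusted p = 0.0412). Groups of 6 and 6 without overlap always give an exact permutation p of 0.00216 (2-sided), the smallest possible. That p therefore adds nothing to the missing overlap, for which the gene was in part chosen. In level, Car3 had a chow median of 4.95 and an HFD median of 1.26 in aorta. With the replicate block the adjusted p was 0.30, and this was the value for all 6 called probes.

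Elovl7, an elongase of long-chain fatty acids, fell in aorta and its tissue difference was also called. Its aorta responses were -1.48 at the lowest, -1.33 at the median and -1.07 at the highest, and its muscle responses were -0.27, 0.47 and 0.90. The groups did not overlap, and the difference was -1.68 ± 0.22 (SE, adjusted p = 0.0412). A further Elovl7 probe gave -1.70 with an adjusted p of 0.327. Slc26a4, which encodes the anion exchanger pendrin, had aorta responses between -4.16 and -2.83 with a median of -3.70. In muscle its responses lay between -1.37 and 1.42, but the probe was not well above background on any KO muscle array of either diet and on only 1 WT muscle array per diet. The muscle response of Slc26a4 was thus not measured, and its fitted difference is no measured size. That fitted value was -3.48 ± 0.42 (SE, adjusted p = 0.0412).

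Of the 3 probes with the higher response in aorta, those of Pnoc and Serpina5 were dim. Pnoc, the precursor of the neuropeptide nociceptin, had aorta responses from 1.48 to 8.72 with a median of 5.66, and muscle responses from -3.93 to 1.28 with a median of -2.56. This gave a fitted difference of 7.33 ± 0.90 (SE, adjusted p = 0.0412) in a fit without the SkM WT trial 3 pair, whose HFD value was left out, and the probe was well above background on 15 arrays. A still dimmer Pnoc probe, well above background on 7 arrays, gave 3.99 (adjusted p = 0.183) with a mean of 4.34 in aorta and 0.35 in muscle. Serpina5, a serine protease inhibitor also named protein C inhibitor, had aorta responses from 2.11 to 2.82 over the 5 pairs measured and muscle responses from -0.60 to 0.73, with a difference of 2.19 ± 0.27 (SE, adjusted p = 0.0412). The Serpina5 probe was well above background on 12 arrays and on no WT aorta chow array, where the HFD level was at least 3.01-fold higher. In muscle it was so on 2 WT chow, 1 WT HFD, 1 KO HFD and no KO chow array, so its muscle response was mostly not measured. The Pnoc and Serpina5 probes were well above background on every array only in the aorta HFD groups. They entered the test through these groups, where they are high, and their fitted differences are no measured sizes. The third, probe A_51_P408584, has no gene name in the files used, and its difference was 2.99 ± 0.40 (SE, adjusted p = 0.0447). The 6 aorta and 6 muscle responses did not overlap for 235 probes (0.858%), 116 with aorta higher (0.424%) and 119 with aorta lower (0.435%). The genes named below whose groups do not overlap are among these probes and were in part chosen for it, so this is a description.

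Genes of white adipocytes, the fat-storing cells that also secrete adiponectin and resistin, gave the largest group of falls in aorta. Of 19 such genes tested, 8 fell in aorta (adjusted p under 0.05), where 0.759% of all probes did. None fell or rose in muscle, where 0.0803% and 0.208% of all probes did, so that none among 19 genes is near these shares. The median tissue difference over the list was -1.42, with a median response of -1.62 in aorta and -0.40 in muscle, and 3 of 19 genes had a difference above 0, against 48.7% of the 14438 genes tested. Car3 was the only member with a called difference, and 9 members passed an unadjusted p under 0.05, all below 0, where 4.22% of all probes did.

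Adipoq, which encodes adiponectin, had aorta responses from -6.89 to -2.25 with a median of -4.97 and muscle responses from -2.04 to 1.07 with a median of -0.33. The groups did not overlap. Its aorta response averaged -4.79 ± 1.80 (SD, n = 6, adjusted p = 0.00396), and the tissue difference of -4.33 ± 0.81 (SE) did not pass correction (adjusted p = 0.108). Retn, which encodes resistin, averaged -4.79 in aorta (SD 1.81, adjusted p = 0.00384) and -0.83 in muscle (SD 1.12), with a tissue difference of -3.96 ± 0.81 (SE, adjusted p = 0.140). Cidec, a lipid droplet fusion protein, averaged -3.51 in aorta (adjusted p = 0.00308) and -0.83 in muscle. Plin1, the main coat protein of adipocyte lipid droplets, averaged -3.24 in aorta (adjusted p = 0.0291) and -0.30 in muscle. Dgat2, which makes triglyceride, fell in aorta by 1.76 (adjusted p = 0.0357) and averaged 0.24 in muscle. Cfd, the adipocyte protease adipsin, fell in aorta by 4.14 (adjusted p = 0.00979) but averaged -2.72 in muscle as well (adjusted p = 0.0885), and its tissue difference was only -1.42 ± 0.82 (SE, adjusted p = 0.623). Fabp4, a fatty acid binding protein that adipocytes share with capillary endothelium, was near 0 in both, at -0.11 in aorta and -0.07 in muscle.

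**Figure D2:**
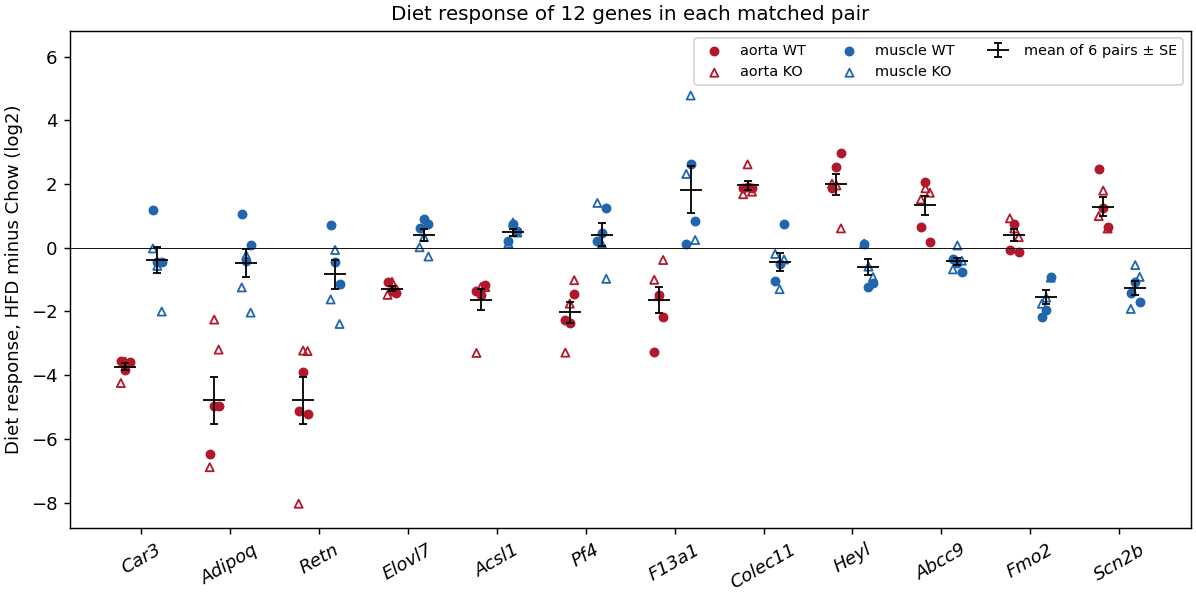
Diet response (HFD minus Chow, log2) of 12 genes in each of 6 aorta pairs (red) and 6 muscle pairs (blue), with filled circles for WT, open triangles for KO and black bars for the mean of 6 pairs ± SE. Car3, Adipoq and Retn lie well below 0 in aorta and around 0 in muscle, while Colec11, Heyl and Abcc9 lie above 0 in aorta and mostly below it in muscle. Fmo2 is shown on its dimmer probe.

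The summed level of the white adipocyte genes, which the brightest members dominate, was lower on HFD in aorta. With the 75th percentile of the array set to 1, it ran from 268.5 to 707.2 on chow in aorta with a median of 309.2, and from 112.2 to 205.0 on HFD with a median of 145.2. In muscle the sums ran from 182.8 to 295.2 on chow and from 153.0 to 258.6 on HFD. The aorta sums did not overlap between the diets, and those of muscle did. The white adipocyte genes are markers of a cell type other than the one sorted, and their part in the other aorta falls was not tested. In the WT trials the list's median difference was -1.92, -2.18 and 0.06, and in the KO trials it was -3.01, -0.83 and -0.53. The value near 0 came from WT trial 3, which holds the aorta pair that stood apart, and without that pair the median over the list was -1.53.

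Genes for fatty acid activation, oxidation and synthesis went the same way in several cases. Acsl1, the acyl-CoA synthetase that activates long-chain fatty acids, fell in aorta (mean -1.62 ± 0.83 SD, adjusted p = 0.0155) and averaged 0.49 ± 0.27 (SD) in muscle. Its aorta responses of -3.30 to -1.16 did not overlap the muscle responses of 0.14 to 0.79, but the tissue difference of -2.11 ± 0.36 (SE) missed the threshold (adjusted p = 0.0848). Dimmer Acsl1 probes averaged -1.93 and -1.96 in aorta but -0.19 and -0.27 in muscle. Their differences were -1.74 (limma, adjusted p = 0.247) and -1.69 (adjusted p = 0.333). Pparg, the nuclear receptor that drives adipocyte genes and is also present in endothelium, averaged -1.19 in aorta and 0.27 in muscle (difference -1.45 ± 0.39 SE, adjusted p = 0.242). Ehhadh, an enzyme of peroxisomal fatty acid oxidation, fell in aorta by 1.65 (adjusted p = 0.0279) and averaged -0.19 in muscle. The desaturase gene Scd1 averaged -1.41 in aorta (adjusted p = 0.0508) and 0.13 in muscle. Over 18 lipogenesis genes the median tissue difference was -0.51 with 5 above 0, and over 17 genes of endothelial fatty acid uptake it was -0.48 with 3 above 0.

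Chchd10, a protein of the mitochondrial intermembrane space, fell in aorta by 2.39 (adjusted p = 0.00303) and averaged -0.16 in muscle. Its tissue difference was -2.22 ± 0.37 (SE, adjusted p = 0.0848), and the groups did not overlap. The genes of the respiratory chain showed much smaller differences: over 25 tested the median was -0.22, with 1 above 0 and none called. Sdhb, a subunit of succinate dehydrogenase, averaged -0.35 in aorta and 0.22 in muscle (difference -0.58 ± 0.19 SE, adjusted p = 0.361). Cycs, which encodes cytochrome c, averaged -0.50 in aorta and 0.28 in muscle without overlap of the groups (difference -0.78 ± 0.28 SE, adjusted p = 0.392).

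Macrophage and antigen presentation genes had the lowest median difference of any list. Of 22 genes tested, 21 had a lower response in aorta than in muscle, and the exception was the scavenger receptor gene Marco. The median response was -0.13 in aorta and 1.46 in muscle, and the median tissue difference was -1.60. Several members were dim in muscle on chow, so their muscle responses are no measured sizes. There the Msr1 probe was well above background on no array, and those of Fcgr3 and Ciita on 1 WT and 1 KO array. Others were bright, with the Pf4 probe well above background on all 24 arrays. In the test across all probes, 1 of the 22 fell in aorta (0.759% of all probes did) and none rose in muscle (0.208%). No difference was called, whereas 10 passed an unadjusted p under 0.05, all below 0 (4.22% of all probes).

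Pf4, the chemokine CXCL4 made by platelets and some tissue macrophages, was the gene that fell in aorta. Its aorta responses ran from -3.29 to -1.02 with a median of -2.00, and its muscle responses from -0.97 to 1.41 with a median of 0.33. The groups did not overlap (difference -2.43 ± 0.47 SE, adjusted p = 0.119). F13a1, the coagulation factor XIII A chain made by resident macrophages, had aorta responses from -3.27 to -0.38 and muscle responses from 0.12 to 4.78, again without overlap (difference -3.46 ± 0.70 SE, adjusted p = 0.138). Retnla, a product of alternatively activated macrophages and adipose tissue, averaged -3.44 ± 2.57 (SD) in aorta and 1.57 ± 2.76 (SD) in muscle. Its difference of -5.02 was among the largest in size, with an adjusted p of 0.287. C1qc, a chain of complement C1q, averaged -1.93 in aorta and 1.58 in muscle (adjusted p = 0.298). Lyz2, lysozyme of myeloid cells, averaged -1.99 in aorta and 0.82 in muscle (adjusted p = 0.241). Its probe was well above background on every array only in the WT aorta chow group, where it is high, and entered the test through that group. In aorta on HFD it was so on 1 WT and 1 KO array, so the Lyz2 values are no measured sizes. Without the SkM KO trial 3 pair the difference was -2.72 for Pf4, -3.96 for F13a1, -5.86 for Retnla, -4.42 for C1qc and -3.46 for Lyz2, with adjusted p from 0.069 to 0.222. Without the Aorta WT trial 3 pair the values were -2.53, -3.49, -4.40, -3.26 and -2.71 in the same order.

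Among 11 genes of other leukocytes, the median response was 0.69 in aorta and 1.69 in muscle. The SkM WT trial 3 pair had a list median of 4.24, against 0.08 to 1.81 in the other muscle pairs. In that pair the summed level of these genes went from 0.28 on chow to 15.2 on HFD. Ptprc rose in muscle (mean 2.97 ± 2.26 SD, adjusted p = 0.0362) and averaged 1.22 ± 0.61 (SD) in aorta. In each tissue its probe was well above background on only 1 WT chow array, so the WT responses are mostly no measured sizes. Ptprc encodes the antigen that the sort selects against. The summed macrophage level ran from 11.4 to 31.0 on chow in aorta and from 8.2 to 22.3 on HFD. In muscle it ran from 5.4 to 27.7 on chow and from 5.4 to 100.1 on HFD with a median of 23.2, and it was higher on HFD in 5 of 6 pairs. The pair in which it did not, KO trial 3, went from 12.9 to 5.4, and its list median in muscle was -1.86 against 0.86 to 2.35 in the other 5. Trial by trial, the list's median tissue difference was -1.64, -0.72 and -2.77 for WT, then -3.03, -3.28 and 2.74 for KO. Without the SkM KO trial 3 pair it was -2.37. The part of these leukocyte markers in the muscle responses was not tested.

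**Figure D3:**
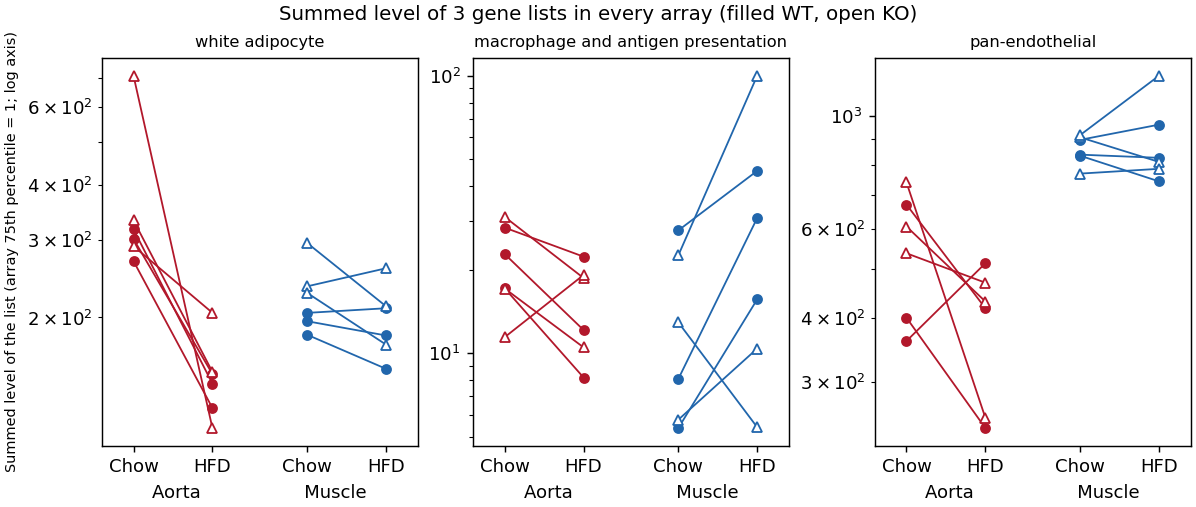
Summed level of the white adipocyte, macrophage and pan-endothelial genes (linear intensity, array 75th percentile = 1, log axis) in each of 24 arrays, with lines joining the Chow and HFD arrays of a pair, filled circles for WT and open triangles for KO. White adipocyte sums are lower on HFD in all 6 aorta pairs, and macrophage sums are higher on HFD in 5 of 6 muscle pairs.

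Pan-endothelial genes had a lower response in aorta than in muscle throughout. All 18 tested had a tissue difference below 0, with a median of -0.56, although none was called in either tissue or between them and 4 passed an unadjusted p under 0.05 (4.22% of all probes did so below 0). Emcn, the sialomucin endomucin of capillary and venous endothelium, averaged -0.93 ± 0.70 (SD) in aorta and 0.18 ± 0.28 (SD) in muscle (difference -1.11 ± 0.32 SE, adjusted p = 0.283). Esam, an adhesion molecule of endothelial junctions, averaged -1.05 in aorta and -0.16 in muscle. Erg, a transcription factor of endothelial identity, averaged -1.47 in aorta and -0.45 in muscle (difference -1.02 ± 0.47 SE, adjusted p = 0.518). Eng itself differed least in this list, with -0.20 in aorta and -0.02 in muscle. The summed endothelial level ran from 361.0 to 739.5 in aorta on chow and from 243.6 to 513.2 on HFD, with medians of 571.4 and 425.2. In muscle the medians were 867.4 and 818.9. Selp, the P-selectin of venous endothelium and platelets, fell in aorta by 0.99 (adjusted p = 0.0372) and averaged 0.20 in muscle without overlap of the groups (difference -1.20 ± 0.28 SE, adjusted p = 0.190). The endothelial median difference of the WT trials was -0.69, -0.98 and 0.54, and that of the KO trials was -1.37, -1.03 and -0.22. WT trial 3 was again the exception, and without its aorta pair the median was -0.81.

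Genes of the vessel wall around the endothelium showed the opposite sign in part. Heyl, a Notch target of pericytes and smooth muscle, rose in aorta (mean 1.99 ± 0.80 SD, adjusted p = 0.0106) and averaged -0.60 ± 0.60 (SD) in muscle. Its aorta responses of 0.61 to 2.99 lay above all muscle responses, which ran from -1.24 to 0.13 (difference 2.60 ± 0.40 SE, adjusted p = 0.0591). A further Heyl probe gave a difference of 3.21 (adjusted p = 0.0848). Abcc9, the sulfonylurea receptor subunit of the potassium channel of pericytes, rose in aorta by a mean of 1.34 (adjusted p = 0.0194), and its muscle mean was -0.43 (difference 1.76 ± 0.32 SE, adjusted p = 0.0968). Its channel partner Kcnj8 averaged 0.67 in aorta and -0.58 in muscle (difference 1.24 ± 0.29 SE, adjusted p = 0.192). Pdgfrb, the receptor that marks mural cells, averaged 0.48 in aorta and -0.47 in muscle (difference 0.95 ± 0.28 SE, adjusted p = 0.308). Over 13 pericyte and PDGF genes the median difference was 0.45 with 7 above 0 (53.8%, against 48.7% of all genes tested). The 6 below 0 were Higd1b at -1.21, the adhesion molecule gene Mcam at -0.91, Pdgfd at -0.48, Pdgfb at -0.34, Rgs5 at -0.30 and Pdgfra at -0.19. Their summed level had a median of 94.4 on chow and 128.9 on HFD in aorta, and of 151.5 and 131.7 in muscle, and the part of these cells in the result was not tested.

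Elastic fibre genes responded in aorta, with 4 of 17 rising there (0.99% of all probes rose) and 1 in muscle (0.208%). Eln, which encodes elastin, rose in aorta by 1.43 (adjusted p = 0.0443) and averaged 0.21 in muscle (difference 1.22 ± 0.43 SE, adjusted p = 0.386). Ltbp1, which anchors latent TGF-beta in the matrix, rose by 1.14 (adjusted p = 0.0439) and averaged -0.20 in muscle (difference 1.34 ± 0.34 SE, adjusted p = 0.224). A dimmer Ltbp1 probe averaged 0.19 and -0.09, with a difference of 0.28 (adjusted p = 0.843). Emilin1, a glycoprotein of elastic fibres, rose by 1.00 (adjusted p = 0.0411) and averaged 0.19 in muscle. Loxl1, a lysyl oxidase that crosslinks elastin, rose by 1.51 in aorta (adjusted p = 0.0490) and averaged 1.34 in muscle (adjusted p = 0.133), so that its difference was 0.17. Mfap4 was the member that rose in muscle, by 2.38 (adjusted p = 0.0394), with a mean of 1.22 in aorta. The median difference over the list was 0.26, and by trial it was -0.81, 1.81 and -0.69 for WT, then 0.99, -0.17 and 0.20 for KO, below 0 in 3 of 6.

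Fibroblast genes had the higher response in muscle, with a median of 0.98 there and 0.45 in aorta over 16 genes, 2 of which had a difference above 0. The median difference was -0.50, and it was -0.80 without the SkM KO trial 3 pair and -0.36 without the Aorta WT trial 3 pair. Lum, the collagen-binding proteoglycan lumican, rose in muscle (mean 2.84 ± 1.13 SD, adjusted p = 0.0120) and averaged 0.87 ± 0.56 (SD) in aorta (difference -1.97 ± 0.50 SE, adjusted p = 0.229). Col3a1, a fibrillar collagen, averaged 0.15 in aorta and 1.39 in muscle (adjusted p = 0.0581 in muscle), but a much dimmer Col3a1 probe averaged 1.91 and 1.61 with a difference of 0.30, so no direction is given for it. Cthrc1, a secreted collagen repeat protein, rose in muscle by 1.82 (adjusted p = 0.0229) and averaged -0.32 in aorta without overlap of the groups (difference -2.14 ± 0.39 SE, adjusted p = 0.0987). Lamb1, a laminin chain of basement membranes, rose in muscle by 1.41 (adjusted p = 0.0269) and averaged 0.77 in aorta. The summed fibroblast level in muscle had a median of 103.1 on chow and 231.7 on HFD, with ranges of 81.6 to 278.6 and 105.6 to 402.5 that overlap. In aorta the medians were 682.8 and 893.0, and the part of fibroblast RNA in these responses was not tested.

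Further genes had aorta responses wholly above the muscle responses without a called difference. Colec11, a secreted collectin that activates the lectin pathway of complement, rose in aorta with responses of 1.68 to 2.62 (adjusted p = 0.00409), and its muscle responses were -1.30 to 0.75 (difference 2.40 ± 0.34 SE, adjusted p = 0.0514). Scn2b, an auxiliary subunit of voltage-gated sodium channels, rose in aorta by 1.29 (adjusted p = 0.0401) and averaged -1.26 in muscle (adjusted p = 0.0840), with a difference of 2.56 ± 0.37 (SE, adjusted p = 0.0514). Fmo2, a flavin monooxygenase, fell in muscle by 1.55 (adjusted p = 0.0124) and averaged 0.40 in aorta on 1 probe (difference 1.95 ± 0.29 SE, adjusted p = 0.0514). The brighter Fmo2 probe gave a smaller difference of 1.03 (adjusted p = 0.242). Trabd2b, a membrane metalloprotease that cleaves Wnt proteins, rose in aorta by 2.14 (adjusted p = 0.00384) and averaged -0.17 in muscle (difference 2.31 ± 0.36 SE, adjusted p = 0.0591). Esm1, endocan, a proteoglycan of sprouting endothelium, averaged 1.05 in aorta and -1.33 in muscle (difference 2.38 ± 0.43 SE, adjusted p = 0.0979). In the other direction, Tmtc2, a mannosyltransferase of the endoplasmic reticulum, rose in muscle by 1.52 (adjusted p = 0.0225) and averaged -0.29 in aorta (difference -1.81 ± 0.32 SE, adjusted p = 0.0968). Mrtfb, a coactivator of serum response factor, fell in aorta by 1.62 (adjusted p = 0.0118) and averaged 0.53 in muscle (difference -2.15 ± 0.34 SE, adjusted p = 0.0597). The probes of Rnf123, Qsox1 and Cul2 that met the same conditions have companion probes of the opposite sign, so no direction is given for these genes.

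Interferon-stimulated genes, an antiviral programme, had the higher response in muscle. Of 24 tested, 21 had a tissue difference below 0, with a median of -0.45 and median responses of 0.12 in aorta and 0.56 in muscle. No difference was called, and 4 passed an unadjusted p under 0.05 (limma), all below 0 (4.22% of all probes). By trial the median difference was -0.26, -1.03 and 0.30 for WT, then -0.63, -0.25 and -0.36 for KO. The WT trial 3 value again holds the aorta pair that stood apart. Oas1a, an oligoadenylate synthetase that senses double-stranded RNA, rose in muscle with responses of 1.01 to 1.49 and a median of 1.18 (adjusted p = 0.0139). In aorta its responses were -0.07 to 1.03, and the difference was -0.87 ± 0.24 (SE, adjusted p = 0.256). Gbp3, a guanylate-binding GTPase, averaged 0.10 in aorta and 0.89 in muscle with all 6 muscle pairs above 0 (adjusted p = 0.174). The immunity-related GTPase gene Igtp averaged -0.01 in aorta and 0.50 in muscle. Ifit3, which binds viral RNA complexes, averaged 0.26 in aorta and 0.64 in muscle, where its responses kept between 0.48 and 0.85. The summed level of the list in muscle ran from 247.7 to 269.6 on chow and from 293.6 to 444.9 on HFD without overlap, while in aorta it ran from 142.0 to 250.4 and from 163.0 to 254.8.

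Many promoters of these genes held a letter pattern that the choice of the list did not use. The interferon response element, spelled as GAAA, any 2 bases and GAAA again, was searched on both strands and counted once where matches overlap. It was found in 13 of the 20 interferon-stimulated genes with a promoter window, against 3.44% of 32851 windows. Windows run from 250 bases before to 50 after the gene start (RefSeq, GRCm38.p6). The windows of a whole chromosome were left out of all these counts, so a gene without a window here may have one in RefSeq. For comparison, the C/EBP site TTGCNNAA was found in 1 of 12 white adipocyte genes with a window (10.8% of all windows) and the PU.1 site GAGGAAGT in 3 of 14 macrophage genes (3.2%). A match describes the sequence and is not a measured binding site. The windows of Oas1a, Gbp3, Igtp and Ifit3 are shown because these are the list members described by their muscle responses, with every match in capitals, read 5′ to 3′ on the gene's strand. Their positions are Oas1a chr5:120907476-120907775 (minus strand), Gbp3 chr3:142559794-142560093 (plus strand), Igtp chr11:58199306-58199605 (plus strand) and Ifit3 chr19:34583279-34583578 (plus strand).
Oas1a: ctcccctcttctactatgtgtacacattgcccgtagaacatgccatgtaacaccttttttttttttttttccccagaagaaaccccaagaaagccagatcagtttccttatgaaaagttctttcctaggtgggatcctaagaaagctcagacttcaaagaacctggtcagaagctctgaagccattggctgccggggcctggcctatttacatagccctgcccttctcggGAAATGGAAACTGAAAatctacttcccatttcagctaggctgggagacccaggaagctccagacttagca
Gbp3: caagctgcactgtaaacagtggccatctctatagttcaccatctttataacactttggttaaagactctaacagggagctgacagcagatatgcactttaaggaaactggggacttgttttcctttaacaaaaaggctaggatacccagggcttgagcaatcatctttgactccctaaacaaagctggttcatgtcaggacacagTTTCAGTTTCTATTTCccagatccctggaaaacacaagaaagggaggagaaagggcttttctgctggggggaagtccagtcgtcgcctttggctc
Igtp: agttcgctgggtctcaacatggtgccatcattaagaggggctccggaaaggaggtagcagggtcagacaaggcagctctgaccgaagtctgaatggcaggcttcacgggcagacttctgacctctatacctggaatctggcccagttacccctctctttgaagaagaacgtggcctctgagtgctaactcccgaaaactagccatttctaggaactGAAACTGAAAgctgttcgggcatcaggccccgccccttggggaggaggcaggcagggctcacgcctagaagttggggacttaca
Ifit3: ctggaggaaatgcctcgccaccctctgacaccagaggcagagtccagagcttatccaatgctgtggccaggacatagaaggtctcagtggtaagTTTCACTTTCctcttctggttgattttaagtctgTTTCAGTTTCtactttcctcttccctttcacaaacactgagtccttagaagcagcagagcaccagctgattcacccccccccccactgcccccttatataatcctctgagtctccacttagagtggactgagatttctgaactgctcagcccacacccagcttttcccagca

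The match lies near the gene start in Oas1a, Gbp3 and Igtp, while Ifit3 holds a pair of separate matches further upstream. In Gbp3 and Ifit3 the letters stand on the opposite strand and appear as TTTC. The motif search does not bear on which factor acted in either tissue.

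Circadian clock genes were called in both tissues, and none had a called difference between them. Of 11 core clock genes tested, 2 rose and 2 fell in aorta, and 2 rose in muscle. Of 10 clock output genes 2 rose in aorta and 1 in muscle. Over all probes 0.99% rose and 0.759% fell in aorta, and 0.208% rose in muscle. Dbp, a clock output transcription factor, rose by 2.27 ± 0.55 (SD, adjusted p = 0.000384) in aorta and by 1.87 ± 0.92 (SD, adjusted p = 0.00424) in muscle. Nr1d1, the repressor REV-ERB alpha, rose by 1.87 (adjusted p = 0.0236) in aorta and by 2.50 (adjusted p = 0.0124) in muscle on its brightest probe, while its other 2 probes averaged 0.28 to 0.61 and were called in neither tissue. Nr1d2, REV-ERB beta, rose by 1.14 (adjusted p = 0.0123) and 1.48 (adjusted p = 0.00599). The difference between the tissues was 0.41 ± 0.24 (SE) for Dbp, -0.63 ± 0.47 for Nr1d1 and -0.34 ± 0.24 for Nr1d2, none past the threshold, which does not show that the tissues respond alike. Arntl, the activator BMAL1, fell in aorta by 0.97 (adjusted p = 0.0499) and averaged -0.77 in muscle (adjusted p = 0.170).

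With the clock genes included, 20 probes were called in both tissues, 17 rising in both and 3 falling in both, and none was called in opposite directions. Cyp1a1, a target of the aryl hydrocarbon receptor, had the lowest fitted mean response of all probes in both tissues. Its aorta responses ran from -8.47 to -4.42 and its muscle responses from -9.90 to -3.69. Its chow medians were 0.35 in aorta and 0.34 in muscle. On HFD its probe was well above background on 1 WT and 2 KO aorta arrays, 1 KO muscle array and no WT muscle array. In WT muscle the chow level was at least 92.6-fold higher. Cyp1a1 entered the test through the chow groups, where it is high, so its responses and their rank are no measured sizes. Cyp2e1, the ethanol-inducible cytochrome P450, fell by 4.64 (adjusted p = 0.00108) in aorta and by 3.70 (adjusted p = 0.00599) in muscle. On HFD in muscle the Cyp2e1 probe was well above background on 2 WT arrays and 1 KO array. Col15a1, a basement membrane collagen of capillaries, rose by 2.38 (adjusted p = 0.0164) and 2.50 (adjusted p = 0.0229). Tbxa2r, the thromboxane A2 receptor, rose by 1.31 (adjusted p = 0.0188) and 1.75 (adjusted p = 0.0111). A dimmer probe of Igf1, insulin-like growth factor 1, rose by 1.96 (adjusted p = 0.0206) and 1.99 (adjusted p = 0.0362), while its brightest probe averaged 1.01 and 1.41 and was called in neither tissue.

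Across probes called in 1 tissue, the other tissue mostly had the same sign with a smaller size. Of the 271 probes that rose in aorta, 205 (75.6%) were above 0 in muscle, where their median was 0.32 against 1.56 in aorta. Of the 208 that fell in aorta, 55 (26.4%) were above 0 in muscle, with medians of -1.55 in aorta and -0.32 in muscle. Of the 57 that rose in muscle, 48 (84.2%) were above 0 in aorta, with a median of 0.80 there. Of the 22 that fell in muscle, 8 (36.4%) were above 0 in aorta, with a median of -0.12 there. Over all probes tested 49.8% were above 0, and the mean responses of the tissues correlated across probes with r = 0.30, which describes probes and not independent samples. The probes were selected in the first tissue for their size, so a smaller median in the other is given as a description.

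**Figure D4:**
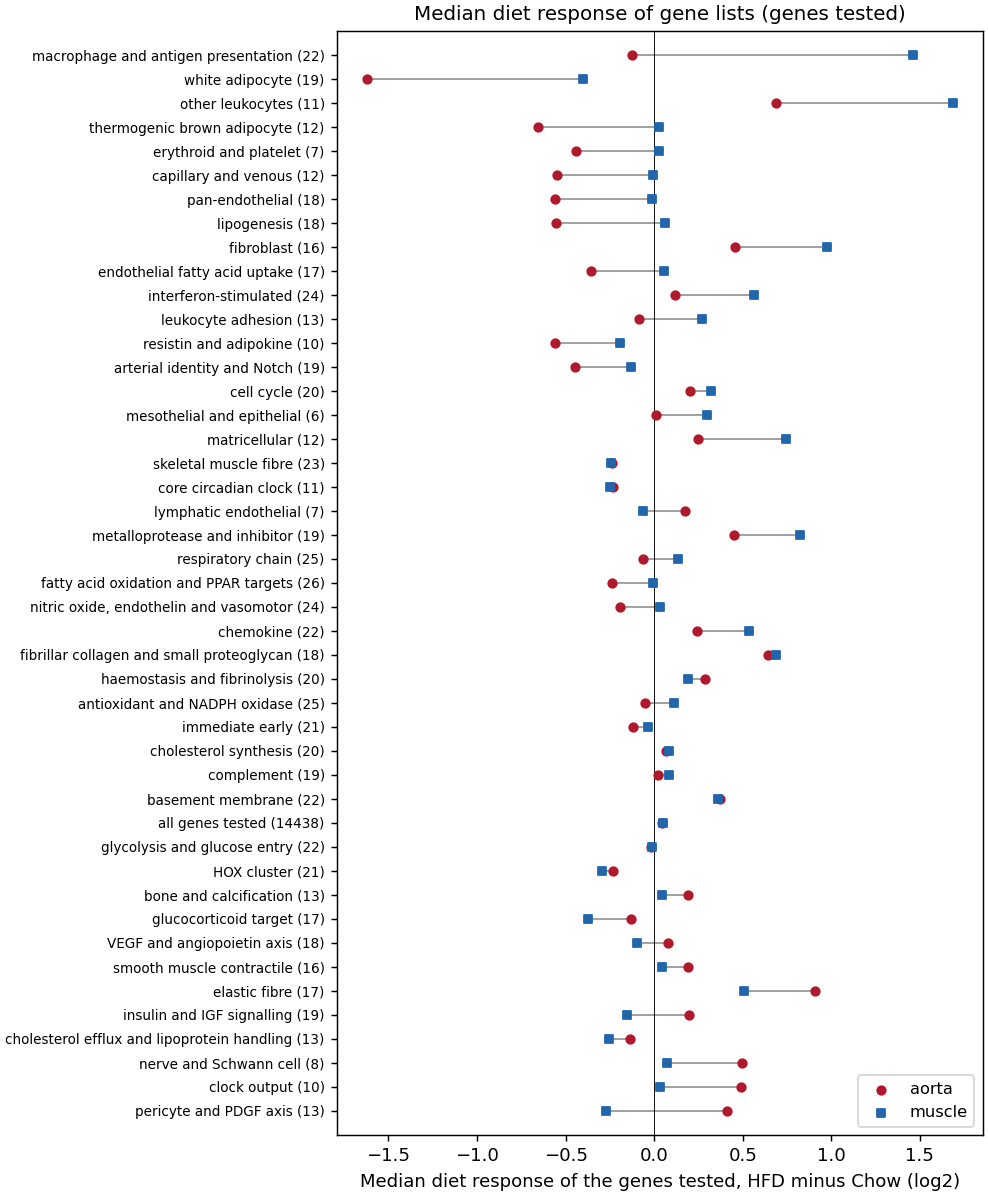
Median diet response (HFD minus Chow, log2) in aorta (red circles) and muscle (blue squares) of each gene list, sorted by median tissue difference, with the number of genes tested in brackets. The macrophage and white adipocyte lists have the widest gap with aorta lower, and the pericyte list has the widest gap with aorta higher.

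Lists that were read for other tissue traits differed in size, and some differences were small. Thermogenic brown adipocyte genes had a median difference of -1.10 over 12 genes, 4 of them above 0. Capillary and venous genes had -0.57 over 12 genes, 1 of them above 0, and no member of either list was called. Contractile smooth muscle genes had a median difference of 0.19 over 16 genes, and skeletal muscle fibre genes -0.29 over 23. Nerve and Schwann cell genes all had the higher response in aorta, 8 of 8 with a median difference of 0.42, none called. Glycolysis genes had a median difference of -0.01 over 22 genes and cholesterol synthesis genes -0.08 over 20. Slc2a4, the insulin-responsive glucose transporter, averaged -1.62 ± 1.32 (SD) in aorta and -0.58 ± 0.43 (SD) in muscle (difference -1.04 ± 0.53 SE, adjusted p = 0.565). Among vasoactive genes, Edn1, which encodes endothelin-1, fell in aorta by 1.12 (adjusted p = 0.0315) and averaged -0.83 in muscle (difference -0.29 ± 0.30 SE). In the bone and calcification list, Enpp1, which makes the mineralisation inhibitor pyrophosphate, rose in aorta by 2.31 (adjusted p = 0.0236) and averaged 0.21 in muscle (difference 2.10 ± 0.58 SE, adjusted p = 0.260). Tnfrsf11b, osteoprotegerin, rose in aorta by 2.68 (adjusted p = 0.0302) and averaged 0.92 in muscle.

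The tissue difference was then compared between the genotypes. No probe differed between KO and WT in its tissue difference past correction (0 of 27387, 0%, limma), and 881 (3.22%) did at an unadjusted p under 0.05. Car3 differed by -3.75 between the tissues in WT and by -2.95 in KO, and Adipoq by -5.71 and -2.94. Heyl had 3.21 in WT and 1.99 in KO, and Acsl1 had -1.83 and -2.39. Lgals3 itself differed by 0.47 in WT and by -1.23 in KO, with a difference over both of -0.38 ± 0.49 (SE, adjusted p = 0.878). With 3 pairs per tissue, neither genotype alone gave a called difference.

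**Figure D5:**
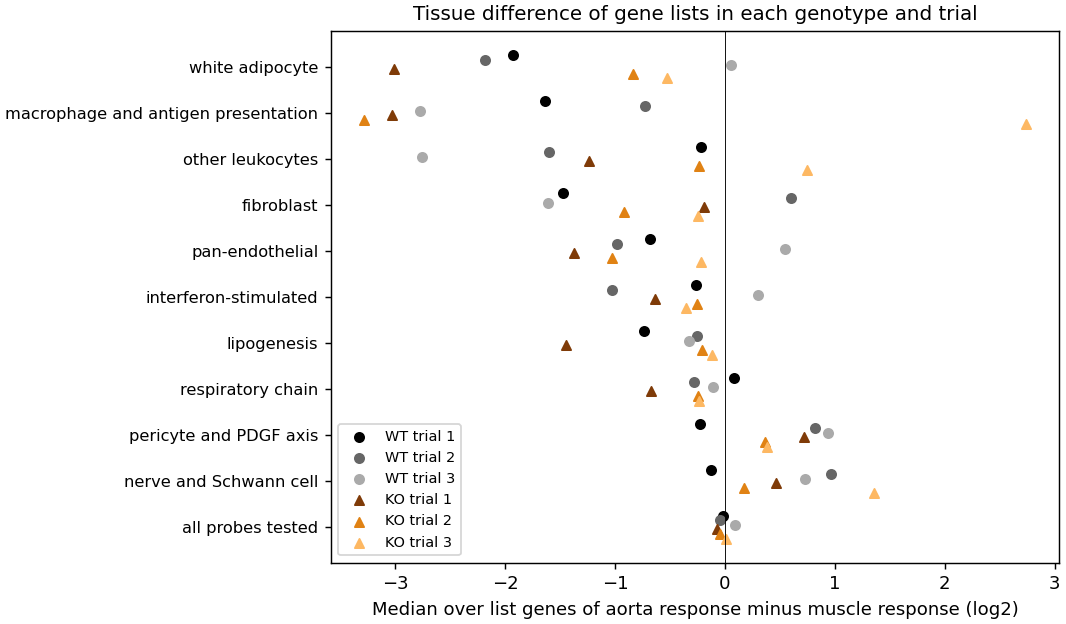
Median over the genes of a list of aorta response minus muscle response (log2) for each genotype and trial, with circles for WT and triangles for KO. The white adipocyte list lies below 0 in 5 of 6 points and the macrophage list in 5 of 6, whereas the pericyte list lies above 0 in 5 of 6.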

How the data were processed

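Single-colour Agilent mouse arrays were hybridised with amplified RNA from sorted cells of 8 groups (2 genotypes, 2 diets and 2 tissues), 3 arrays each. Per the file headers, the authors' scanner software (Agilent Feature Extraction 10.5.1.1, while the submitters' processing notes name version 9.1) wrote for every spot a processed signal, an intensity after background subtraction, together with flags. The deposited log2 table of the series holds the authors' normalized values of the same arrays and served as an alternative: on every array it equals the log2 processed signal up to a constant. Here log2 of the processed signal was taken relative to the 75th percentile of the 43379 non-control spots of the array (intensity 2390 to 5938), spots of a probe were averaged, and outlier spots (0.193% of values) were left out. Of 41174 probes, 27387 were well above background on all arrays of at least 1 group and were tested, 20604 of them with a gene symbol (14438 symbols).

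Responses were HFD minus Chow within genotype, tissue and trial. The 12 responses were fitted with limma 3.58.1 in R 4.3.3 (a mean per tissue, genotype as covariate, empirical Bayes) and adjusted by Benjamini-Hochberg over all probes tested. Adjusted p-values are limma's, and exact permutation tests over 924 splits are 2-sided. A gene is given on its tested probe with the highest mean, except genes named for a tissue difference, which are given on the probe concerned. Genes were named by fixed rules: up to 12 per direction by tissue difference without overlap of the groups, up to 4 members called (otherwise the 2 of smallest p) in each list, and Lgals3, Retnla, Igf1, Slc2a4 and Adipoq. Other list members, and genes called in 1 or both tissues, were added after their values were seen. The members and lists were chosen with earlier results of these data known. List counts and medians carry no test. By the series description each trial was an experiment of its own, with its own pools of animals.

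The tissues of a genotype, diet and trial came from the same pooled animals by the series description, so genotype and trial were also fitted as a replicate block. Deviations of paired tissues correlated by -0.08, -0.06 and 0.03 in WT and by 0.12, 0.23 and 0.12 in KO. Each of 6 slides held 1 tissue and trial, so slide and tissue cannot be told apart except as a random block, and a pair never crossed slides. Trial 1 was scanned in 1 session and trials 2 and 3 in another. The number of arrays limits the precision. Alternatives were normexp (offset 50, on the median signal), quantile normalization over all arrays or within tissue, the deposited table, other filters, each trial or pair left out, unpaired arrays, slide as a random block, each genotype alone and the methods' t-test of the 12 responses. The fit was tested on simulated data. The files name no genome build, and the only coordinates given are those of RefSeq's promoter windows (GRCm38.p6). Of the 24 interferon-stimulated genes, 20 had one among the windows searched. Results for some members of the lists are not reported here.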

Additional observations from a re-analysis of the deposited data

Results flagged for a closer look

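The tissue difference itself passed correction for 6 probes: -3.35 for Car3, -1.68 for Elovl7, -3.48 for Slc26a4, 2.19 for Serpina5, 7.33 for Pnoc and 2.99 for the unnamed probe A_51_P408584 (log2, aorta response minus muscle response, limma). The muscle side of Slc26a4 was mostly not well above background, so its value is fitted and not measured. The probes of Serpina5 and Pnoc were well above background on every array only in the aorta HFD groups, so their values are no measured sizes either. None of the 6 passed with the tissues blocked by genotype and trial.

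In 11 of 174 sets of 6 responses checked, 1 pair lay far from the other 5 by Dixon's criterion, which chance alone would mark in about 1 set of 20. In aorta these were the KO trial 1 pair for Chchd10 (-3.77), Acsl1 (-3.30) and Emilin1 (2.05), the KO trial 2 pair for Colec11 (2.62), the KO trial 3 pair for Pla2g7 (-1.43), the WT trial 1 pair for Qsox1 (-0.32) and Sdhb (0.02), and the WT trial 2 pair for Serpina5 (2.82). In muscle they were all the WT trial 2 pair, for Cthrc1 (2.92), Cspg4 (-1.92) and Cycs (0.95).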

How the results depend on the processing

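The number of probes called was sensitive to nearly every choice, and the depth of the comparison is set by 6 pairs per tissue. For the tissue difference (6 probes), normexp background correction gave 37, quantile normalization 22 over all arrays and 21 within tissue, the table of deposited values 2, no filter on dim probes 0 and a filter on all 24 arrays 39. The replicate block over the tissues gave 0, unpaired arrays (no replicate block) 0, slide as a random block 0, the WT pairs alone 0 and the KO pairs alone 0. The methods' t-test gave 2669 probes at an unadjusted p under 0.05 and 4 after Benjamini-Hochberg. A count of probes without overlap of the 6 and 6 responses gave 235. For the aorta response (479), normexp gave 953, no filter 166 and the slide block 35. For the muscle response (79), normexp gave 131, no filter 36, the filter on all arrays 148 and the slide block 16. Leaving out a trial or a pair gave 0 to 10 for the tissue difference (10 without SkM KO trial 3), 0 to 1226 for aorta (0 without trial 2, 72 without Aorta WT trial 2, 1226 without Aorta WT trial 3) and 0 to 95 for muscle (0 without trial 1 or 2, 13 without SkM KO trial 1, 95 without Aorta WT trial 3). The cause was not tested.

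Under the alternatives run, signs turned for 5 of the 87 genes recomputed, which leave out some genes named above. Fabp4 became 0.047 with quantile normalization over all arrays, 0.049 within tissue and 0.11 in WT alone, and ranged from -0.18 to 0.11 with a trial or pair left out. Lgals3 was 0.47 in WT alone and ranged from -0.79 to 0.0087. Col15a1 was 0.48 in KO alone and ranged from -0.51 to 0.26. Nr1d2 was 0.022 in KO alone, and Cdh5 ranged from -0.86 to 0.0093 with a trial or pair left out. The list medians of the white adipocyte (-2.23 to -0.58), macrophage (-2.37 to -0.70) and pan-endothelial (-0.90 to -0.35) genes kept their sign under every alternative, and that of the pericyte genes ran from 0.01 to 0.51, while 20 of 44 list medians turned, among them those of the elastic fibre (-0.06 to 0.51), smooth muscle (-0.01 to 0.55), skeletal muscle fibre (-0.61 to 0.62), glycolysis (-0.10 to 0.07), cholesterol synthesis (-0.23 to 0.05) and other leukocyte genes (-1.86 to 0.26). Rescaling moved the median of all probes by less than 0.02, and the replicate block changed the call of all 6 probes called for the tissue difference and added none.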
